A study of Mus musculus with 50 samples.

Results

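Expression of 8 mouse genes of the LIF and STAT3 pathway and of the Pim kinase family was followed in naive embryonic stem (ES) cells, in ES cells that carried short hairpins and in epiblast-like cells (epiLC), a culture model of the epiblast after implantation. The genes were chosen by symbol: Lifr and Il6st encode receptor chains, Jak1 a receptor-bound kinase, Stat3 the transcription factor, Socs3 an inhibitor of the receptor complex, and Pim1, Pim2 and Pim3 serine/threonine kinases. All 8 were found in each of 4 expression tables, among 17043 genes in the table of FPKM values (fragments per length of transcript and size of library) and among 55421 genes in each of 3 tables of TPM values (transcript shares scaled to length, with the same total in every library). All 8 also passed the filter on low values in every table, so that the tests ran on 8 of 14407, 15562, 16559 and 15304 genes. The series asks how β-catenin and proteins associated with it act on developmental genes, and 32 of its 50 samples are RNA-seq libraries.

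The FPKM table held V6.5 cells, a mouse ES cell line, in 2i, a medium whose MEK and GSK3 inhibitors hold ES cells in the naive state. These cells carried a hairpin against GFP as a control (shGFP, 6 libraries), β-catenin (shBcat, 2), E2F6 (shE2F6, 2) or HP1γ (written shHP1r in the titles, 2). A second table held cells labelled QKO, which the labels do not spell out, in 2i with shBcat or shGFP (3 each) and a time of 48 h whose start is not stated. The third table held V6.5 cells in 2i and at 24 and 48 h of epiLC culture (2 each). The fourth held epiLC, also V6.5 by their titles, with shBcat at 24, 48 and 96 h and without a named hairpin at 96 h (2 each). The labels name no hairpin for the third table or for these 96 h controls, and whether those cells carried one is not stated. The labels do not say that replicates were separate cultures. The spread behind each p-value is that between libraries, and it may be technical.

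Leukaemia inhibitory factor (LIF) binds a receptor made of the Lifr and Il6st (gp130) chains, whose associated Janus kinases phosphorylate STAT3. Phosphorylated STAT3 enters the nucleus and activates target genes, among them Socs3, whose product binds the receptor complex and shuts signalling down, and Pim1 and Pim3, whose products promote growth and survival. LIF is a classical factor for the culture of mouse ES cells, while 2i medium holds them naive by inhibiting kinases. RNA levels alone do not measure phosphorylation of STAT3. In bulk RNA, fewer cells of a type and less RNA per cell cannot be told apart.

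The 250 bases before the RefSeq start site of the 4 genes that rose between 2i and 48 h of epiLC (below) are shown because Socs3, Pim1 and Pim3 rose together while Pim2 peaked earlier. They come from the RefSeq promoter table of build GRCm38.p6, whose coordinates are those of mm10, and are written 5′ to 3′ on the gene's strand. Capitals mark matches to a STAT motif (TTCNNNGAA) or a Tcf motif (CTTTGA), searched on both strands. Socs3 lies at chr11:117969367-117969616 on the minus strand, Pim1 at chr17:29490535-29490784, Pim2 at chrX:7878056-7878305 and Pim3 at chr15:88861944-88862193, all 3 Pim genes on the plus strand.
Socs3: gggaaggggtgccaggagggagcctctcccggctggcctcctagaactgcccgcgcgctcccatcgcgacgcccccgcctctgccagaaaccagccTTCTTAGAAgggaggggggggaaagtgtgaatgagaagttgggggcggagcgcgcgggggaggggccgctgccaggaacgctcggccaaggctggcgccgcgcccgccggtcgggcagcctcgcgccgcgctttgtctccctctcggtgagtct
Pim1: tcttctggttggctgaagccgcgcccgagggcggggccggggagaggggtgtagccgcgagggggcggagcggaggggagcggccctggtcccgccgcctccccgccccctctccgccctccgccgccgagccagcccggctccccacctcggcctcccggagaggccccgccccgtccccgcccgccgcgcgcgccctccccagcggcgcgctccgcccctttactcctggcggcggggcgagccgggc
Pim2: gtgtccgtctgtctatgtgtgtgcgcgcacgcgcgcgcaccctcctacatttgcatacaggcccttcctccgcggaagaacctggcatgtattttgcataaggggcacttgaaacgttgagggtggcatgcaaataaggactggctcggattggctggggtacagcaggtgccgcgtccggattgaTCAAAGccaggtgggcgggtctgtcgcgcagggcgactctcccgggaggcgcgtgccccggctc
Pim3: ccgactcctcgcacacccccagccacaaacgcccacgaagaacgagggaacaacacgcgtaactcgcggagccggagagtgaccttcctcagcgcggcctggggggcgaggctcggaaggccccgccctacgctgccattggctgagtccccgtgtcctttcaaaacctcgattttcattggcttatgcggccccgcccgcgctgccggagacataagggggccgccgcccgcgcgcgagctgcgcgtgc

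Over the 300-base RefSeq windows (250 bases before to 50 after a start), the 8 genes had 10 windows, Lifr and Pim1 having 2 each. The STAT motif matched only the Socs3 window, as TTCTTAGAA from base -154 to -146 before the start, against 8.3% of all 32851 windows of that length. The Tcf motif matched only the Pim2 window, as TCAAAG (the reverse complement) from base -64 to -59, against 16% of all windows. An E2F motif (TTCCCGC) matched none of the 10 windows, against 4.6% of all windows. The 2 matches lay in different genes and did not overlap. A match is a string of letters, and its absence says only that these letters are not in this window. The Socs3 stretch lies within the span that RefSeq gives for the gene, chr11:117966079-117970336.

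Several facts about the libraries bear on the values. The targeted RNA was lower than in the controls in all 5 comparisons that have controls in the same table: Ctnnb1, which encodes β-catenin, was at 5.69% of its control level in V6.5, 12.8% in QKO and 32.3% at 96 h of epiLC, E2f6 at 30.5%, and Cbx3, which encodes HP1γ, at 10.9%. The shBcat epiLC at 24 and 48 h have no control of their time in their table, and the knockdown was not checked there. In the FPKM table, the mitochondrial share of the summed FPKM was 20.4% and 19.3% for replicates 3 and 4 of shGFP, 22.9% and 22.3% for shE2F6, and 6.23% to 10.3% for the other 8 libraries. The 6 shGFP libraries also lay in pairs (1 and 2, 3 and 4, 5 and 6), with a median absolute log2 difference over genes of 0.0506 to 0.0657 within a pair and 0.158 to 0.371 across pairs. All 10 naive ES cell markers reached 1 FPKM or TPM in every 2i group. In the third table their summed level was 2438 to 2480 TPM in 2i, 1486 to 1538 at 24 h and 603 to 634 at 48 h, while 9 epiLC markers summed to 125 to 131, 1034 to 1041 and 477 to 484 TPM. Sequencing depth is unknown.

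In the 2i cells with no named hairpin, the order of the mean levels, per length in TPM, was Pim1 (67.2), Jak1 (32.7), Pim3 (30.7), Il6st (23.8), Stat3 (12.9), Lifr (8.90), Pim2 (4.60) and Socs3 (2.72). No neighbours in this order overlapped between libraries, and the narrowest gap lay between Jak1, with 31.6 and 33.9 TPM, and Pim3, with 29.9 and 31.4 TPM. With 2 libraries a group, the order of Jak1 and Pim3 is not distinguished. At 48 h of epiLC the order was Pim1 (293.8), Pim3 (114.5), Pim2 (40.6), Jak1 (35.2), Il6st (15.1), Socs3 (14.2), Stat3 (10.8) and Lifr (3.99). There, Il6st with 14.6 and 15.5 TPM overlapped Socs3 with 13.1 and 15.3 TPM.

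From 2i to 24 h of epiLC, the receptor chains, Jak1 and Stat3 fell, Pim2 rose, and Socs3, Pim1 and Pim3 did not pass the test. Of the 8 genes, 1 was higher and 4 were lower. In this comparison 76.0% of all genes tested were called, so a called share of this size is near the background, and the sizes of the changes carry the description. The median log2 change of the 8 genes was -0.23, beside -0.04 over all genes tested. Log2 changes here and below are differences on the log2(value + 1) scale, which understates changes of low genes, while a level given as a number of times another is the ratio of the mean values. The test was limma with p-values adjusted over all genes tested. Where libraries of compared groups are said not to overlap, here and below, this only describes the values. The share of all genes without overlap is not given here, so nothing is drawn from it for any gene.

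Lifr, the LIF-binding chain, gave 8.38 and 9.41 TPM in 2i, 7.19 and 6.56 at 24 h and 4.04 and 3.94 at 48 h. Its libraries stepped down without overlap at both intervals, by log2 changes of -0.33 (SE 0.08, adjusted p = 0.0067) and -0.66 (SE 0.08, adjusted p = 0.00022). Il6st, the signal-transducing chain shared by the IL-6 family, gave 23.96 and 23.56 TPM in 2i, 8.85 and 8.92 at 24 h and 14.63 and 15.49 at 48 h. It fell by 1.32 on the log2 scale to 24 h (SE 0.05, adjusted p = 6.8e-07) and then rose by 0.70 (SE 0.05, adjusted p = 1.5e-05), ending below its 2i level with a change of -0.63 (adjusted p = 2.1e-05). The 2 receptor genes thus took different courses, Lifr stepping down throughout and Il6st dipping at 24 h.

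Jak1, a kinase bound to the receptor, gave 33.91 and 31.56 TPM in 2i, 14.39 and 15.81 at 24 h and 34.73 and 35.57 at 48 h. It fell by 1.07 on the log2 scale (SE 0.06, adjusted p = 4.1e-06) and rose again by 1.17 (SE 0.06, adjusted p = 3.7e-06). Stat3 gave 12.25 and 13.46 TPM in 2i, 4.85 and 3.86 at 24 h and 10.48 and 11.07 at 48 h. It fell by 1.38 (SE 0.10, adjusted p = 1.6e-05) and rose by 1.14 (SE 0.10, adjusted p = 4.6e-05). Both genes came back close to their 2i level, with a change from 2i to 48 h of 0.10 for Jak1 (SE 0.06, adjusted p = 0.15) and -0.23 for Stat3 (SE 0.10, adjusted p = 0.065). For Stat3 that last change passed the test with median-of-ratios scaling (-0.33, adjusted p = 0.017) and when either 24 h library was left out of the fit (adjusted p = 0.023), and for Jak1 it turned to -0.0040 under that scaling (adjusted p = 0.96).

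Socs3, the feedback inhibitor, gave 2.11 and 3.33 TPM in 2i, 3.16 and 3.24 at 24 h and 13.1 and 15.35 at 48 h. The 2i and 24 h libraries overlapped and the 48 h libraries lay far above both, 4.45 times the 24 h mean (log2 change 1.85, SE 0.16, adjusted p = 6.4e-05). Pim1, a kinase gene known as a STAT3 target, gave 69.29 and 65.2 TPM in 2i, 62.46 and 60.41 at 24 h and 272.92 and 314.7 at 48 h, a rise of 4.78 times from 24 to 48 h (log2 change 2.24, SE 0.07, adjusted p = 1.1e-06). Pim3 gave 29.91 and 31.4, then 30.25 and 29.63, then 105.53 and 123.55 TPM, a rise of 3.83 times from 24 to 48 h (log2 change 1.90, SE 0.07, adjusted p = 1.8e-06). These 3 genes did not pass the test in the first interval and rose in the second. Without replicate 2 of 2i, Socs3 was called higher at 24 h (0.43, adjusted p = 0.015), and without either 48 h library Pim1 was called lower at 24 h (-0.13, adjusted p = 0.030).

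Pim2 took another course. It gave 4.68 and 4.51 TPM in 2i, 223.09 and 222.87 at 24 h and 42.75 and 38.36 at 48 h. The 24 h mean was 48.5 times the 2i mean (log2 change 5.32, SE 0.05, adjusted p = 1.9e-08), and the level then fell by 2.43 on the log2 scale (SE 0.05, adjusted p = 2.6e-07) to 8.83 times the 2i level (log2 change 2.89, SE 0.05, adjusted p = 4.8e-08). Pim2 was the lowest of the 3 Pim genes in 2i and the highest at 24 h.

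Between 24 and 48 h all 8 genes were called, 6 higher and 2 lower, where 74.2% of all genes tested were called. Their median log2 change was 1.16, beside 0.12 over all genes tested. Between 2i and 48 h, 4 were higher (Socs3, Pim1, Pim2 and Pim3) and 2 lower (Lifr and Il6st), against 75.9% of all genes called, with a median of 0.98 beside 0.11. Median-of-ratios scaling moved the median of all genes by -0.10 in both comparisons and turned the direction of none of the called members. Without a filter on low values, Lifr lost its call from 2i to 24 h (adjusted p = 0.24) and from 24 to 48 h (adjusted p = 0.057). Of all 55421 genes then tested, 13.3% and 11.7% were called.

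Markers of other cell types moved over the same interval. Of the 10 fibroblast or feeder markers, 2 reached 1 TPM in 2i, 4 at 24 h and 8 at 48 h, and the whole list summed to 568 to 582, 160.4 to 162.7 and 179 to 189.6 TPM. Fn1 (fibronectin) made up most of that sum and went down, with 563.62 and 578.22 TPM in 2i, 147.78 and 148.68 at 24 h and 158.92 and 170.65 at 48 h. The 9 other than Fn1 summed to 3.96 to 4.87, 12.6 to 14.0 and 18.9 to 20.4 TPM. The 9 primitive endoderm markers summed to 6.77 to 7.29, 7.11 to 7.14 and 25.0 to 29.0 TPM, with Dab2 alone at a mean of 15.3 TPM at 48 h. The 8 trophoblast markers summed to 44.4 to 46.5, 8.74 to 9.05 and 35.9 to 36.3 TPM. Lum was at 0 in both 2i libraries. Their part in the levels of the 8 genes was not tested.

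Other genes of the pathway came from 4 lists of 55 genes in all: cytokines and receptors of the IL-6 family, kinases and STATs, inhibitors and phosphatases, and STAT3 target genes. From 2i to 24 h, 18 of the 50 tested were higher and 21 lower, where 76.0% of all genes tested were called. Those with the smallest p were Cntfr, the receptor of ciliary neurotrophic factor (3.96 to 68.3 TPM, log2 change 3.80), Gbx2 (2.31 to 36.3 TPM, 3.50), Tfcp2l1 (81.9 to 2.04 TPM, -4.77) and Ccnd1, which encodes cyclin D1 (28.1 to 96.4 TPM, 1.74). Gbx2 and Tfcp2l1 are both transcription factor genes known as STAT3 targets in ES cells, and they moved in opposite directions. Of the 9 kinases and STATs, 1 was higher and 6 were lower at 24 h.

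From 24 to 48 h, 30 of the 50 were higher and 10 lower, where 74.2% of all genes tested were called. A called share of this size in the lists is near the background. Stat5b rose from 0.775 to 9.15 TPM (log2 change 2.52), Jak2, another receptor-bound kinase, from 1.59 to 11.5 TPM (2.28), Junb, an AP-1 subunit, from 3.35 to 24.2 TPM (2.53) and Zfp36, an mRNA decay factor, from 6.36 to 27.1 TPM (1.93). Of the 9 kinases and STATs, 6 were now higher and 1 lower, and of the 17 STAT3 target genes 11 were higher and 3 lower. From 2i to 48 h, 27 were higher and 18 lower, led by Gbx2 (2.31 to 101.1 TPM, log2 change 4.95), Cntfr (3.96 to 38.7 TPM), Tfcp2l1 (81.9 to 3.35 TPM, -4.26) and Junb (1.02 to 24.2 TPM, 3.64). The median log2 change over the 50 genes was 0.34, beside 0.11 over all genes tested, of which 75.9% were called.

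**Figure D1:**
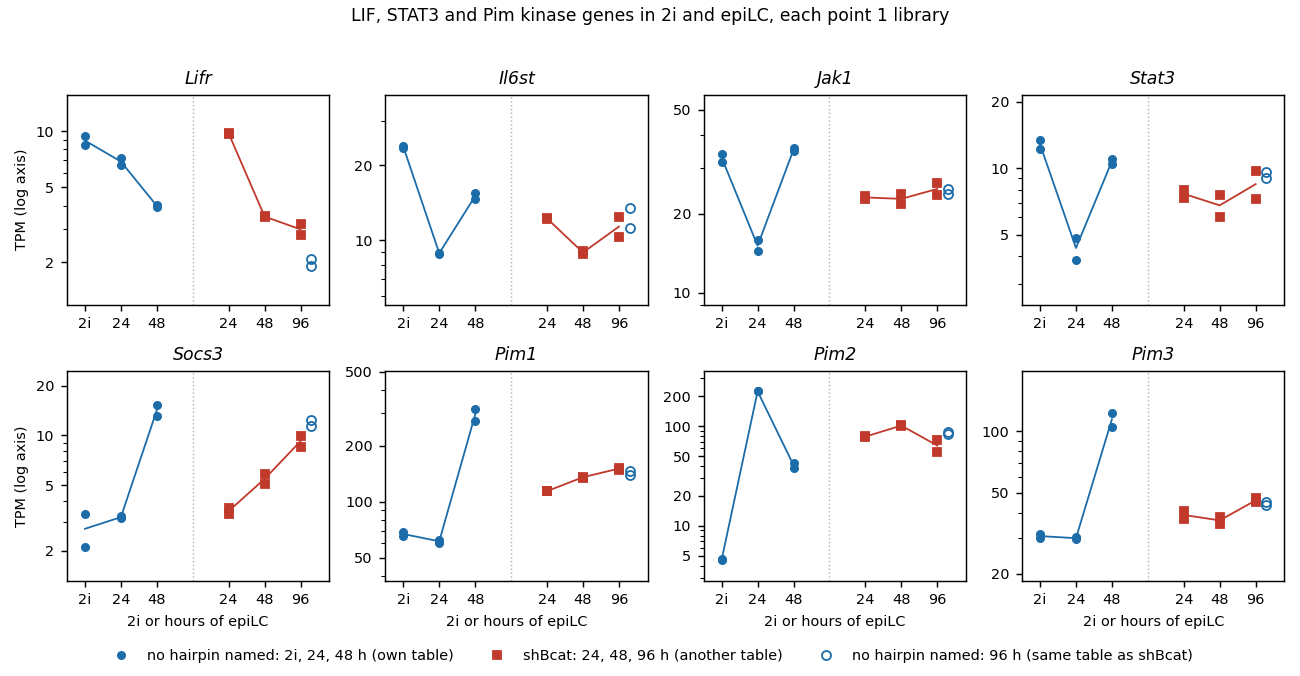
TPM (log axis) of each gene against 2i or hours of epiLC, each point 1 library and lines through group means. Left of the dotted line is the table with no named hairpin and right of it the table with shBcat, normalized apart. On the left, Pim2 peaks at 24 h near 223 TPM and Socs3, Pim1 and Pim3 are highest at 48 h, while on the right Pim2 lies between 54.7 and 102.7 TPM.

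With the β-catenin hairpin, epiLC were sampled at 24, 48 and 96 h. From 24 to 48 h, 3 of the 8 genes rose (Socs3, Pim1 and Pim2) and 2 fell (Lifr and Il6st), where 33.4% of all genes were called, with a median log2 change of -0.05 beside -0.02 over all genes. From 48 to 96 h, 3 rose (Socs3, Pim1 and Pim3) and 1 fell (Pim2), against 35.0% of all genes, with a median of 0.21 beside 0.09.

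Lifr with shBcat gave 9.65 and 9.75 TPM at 24 h, 3.48 and 3.52 at 48 h and 2.79 and 3.19 at 96 h. The first step was a fall by 1.25 on the log2 scale (SE 0.09, adjusted p = 7.8e-05), and the second did not pass (-0.18, adjusted p = 0.17). Il6st gave 12.29 and 12.19, then 9.04 and 8.85, then 10.29 and 12.43 TPM, a fall by 0.41 at first (SE 0.11, adjusted p = 0.021) that lost its call without either replicate of the 24 h or of the 48 h group. Its second step of 0.31 (adjusted p = 0.059) passed without either 96 h library without a named hairpin (adjusted p = 0.043) or without replicate 1 of shBcat at 96 h (0.43, adjusted p = 0.028). Jak1 lay between 21.78 and 26.1 TPM and Stat3 between 6.03 and 9.72 TPM at the 3 times, with no call at either interval in the full fit. Without replicate 2 of shBcat at 96 h, Stat3 was called higher at 96 than at 48 h (0.47, adjusted p = 0.046).

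Socs3 with shBcat gave 3.34 and 3.63 TPM at 24 h, 5.09 and 5.83 at 48 h and 8.5 and 9.96 at 96 h. It stepped up without overlap at both intervals, by 0.52 (SE 0.10, adjusted p = 0.0067) and 0.66 (SE 0.10, adjusted p = 0.0027). The first of these calls was lost without replicate 2 of the 48 h group (0.44). Pim1 gave 114.13 and 114.22, then 136.33 and 134.89, then 152.54 and 149.08 TPM, with log2 changes of 0.25 (SE 0.04, adjusted p = 0.0041) and 0.15 (SE 0.04, adjusted p = 0.030). Median-of-ratios scaling took the second Pim1 change to 0.05 (adjusted p = 0.43), and that call was also lost without any one of the 24 h or 48 h libraries or replicate 1 of shBcat at 96 h (adjusted p = 0.064 to 0.14). Both genes were highest at 96 h.

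Pim2 with shBcat gave 77.63 and 79.29 TPM at 24 h, 99.75 and 102.65 at 48 h and 54.66 and 73.02 at 96 h. It rose by 0.36 (SE 0.11, adjusted p = 0.045), a call lost without any one of the 24 h or 48 h libraries or of the 96 h libraries without a named hairpin, and then fell by 0.67 (SE 0.11, adjusted p = 0.0043). Pim3 gave 40.61 and 37.21, then 37.88 and 35.31, then 46.88 and 44.89 TPM, and rose in the second interval by 0.32 (SE 0.06, adjusted p = 0.0081), a call lost without replicate 2 of the 48 h group (0.27). The 24 and 48 h libraries of Pim3 overlapped.

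Set beside the cells of the third table, 2 courses ran in opposite directions between 24 and 48 h. Il6st rose by 0.70 without a named hairpin and fell by 0.41 with shBcat, and Pim2 fell by 2.43 without a named hairpin and rose by 0.36 with shBcat. These tables were normalized apart, and the differences between them were not tested. At 48 h, Pim1 stood at 293.8 ± 29.5 TPM (SD, n = 2) without a named hairpin and 135.6 ± 1.02 TPM (SD, n = 2) with shBcat, and Pim3 at 114.5 ± 12.7 and 36.6 ± 1.82 TPM. At 24 h, Pim2 stood at 223.0 ± 0.156 and 78.5 ± 1.17 TPM. The hairpin and the table cannot be told apart in these values.

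Among the 47 other pathway genes tested with shBcat, 9 were higher and 12 lower from 24 to 48 h, against 33.4% of all genes called. Fos, an AP-1 subunit, rose from 0.48 to 2.42 TPM (log2 change 1.21), while Tfcp2l1 fell from 4.54 to 2.29 TPM (-0.75), Klf5 from 27.2 to 17.0 TPM (-0.64) and Pias2, an inhibitor of STAT proteins, from 69.5 to 52.9 TPM (-0.39). From 48 to 96 h, 14 were higher and 6 lower, against 35.0% of all genes called. Mcl1, an anti-apoptotic gene, fell from 266.2 to 191.9 TPM (-0.47) and Stat4 from 3.58 to 1.84 TPM (-0.69), while Stat5b rose from 2.65 to 4.91 TPM (0.69) and Bcl2l1, also anti-apoptotic, from 15.8 to 23.4 TPM (0.54).

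At 96 h of epiLC, shBcat could be compared with epiLC without a named hairpin in the same table. Of the 8 genes only Lifr was called, higher with shBcat, where 4.82% of all genes tested were called. The median log2 change of the 8 was -0.04, beside -0.01 over all genes. Lifr gave 1.9 and 2.09 TPM without a named hairpin and 2.79 and 3.19 TPM with shBcat, 1.50 times as much (log2 change 0.41, SE 0.09, adjusted p = 0.044). The groups did not overlap, but the call was lost when any of the 8 libraries of the table was left out (adjusted p = 0.067 to 0.16) and when only these 4 libraries were fitted (adjusted p = 0.19).

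Pim2 gave 83.39 and 86.43 TPM without a named hairpin and 54.66 and 73.02 TPM with shBcat at 96 h (log2 change -0.42, SE 0.11, adjusted p = 0.089), which passed without shBcat replicate 2 (-0.63, adjusted p = 0.0047). Socs3 gave 11.35 and 12.38 against 8.5 and 9.96 TPM, a log2 change of -0.33 (SE 0.10, adjusted p = 0.12). Both genes were lower with shBcat in these libraries, which is a description only, and neither difference passed in the full fit. Il6st, Jak1, Stat3 and Pim3 overlapped between the groups, with log2 changes between -0.14 and 0.04, and Pim1 gave 139.86 and 145.87 against 152.54 and 149.08 TPM (0.08, adjusted p = 0.38). Of the 47 other pathway genes, 2 were higher and 6 lower with shBcat, where 4.82% of all genes tested were called. Fos stood at 2.65 without a named hairpin and 1.23 TPM with shBcat (log2 change -0.71, adjusted p = 0.011), Zfp36 at 12.7 and 7.97 TPM (-0.61, adjusted p = 0.017) and Ier3 at 8.16 and 4.71 TPM (-0.68, adjusted p = 0.022). Of the 15 STAT3 target genes tested, 1 was higher and 4 were lower, beside the same 4.82% of all genes.

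In V6.5 cells held in 2i, shBcat left 7 of the 8 genes without a call and raised Lifr. In this comparison 8.71% of all genes tested were called, and the median log2 change of the 8 was 0.19, beside 0.01 over all genes. Lifr had a lowest, median and highest level of 3.59, 4.18 and 4.38 FPKM in the 6 shGFP libraries, against 7.13 and 7.35 FPKM with shBcat. The groups did not overlap and the mean was 1.78 times the control mean (log2 change 0.70, SE 0.10, adjusted p = 0.0025). The shGFP pair with the high mitochondrial share had 4.17 and 4.34 FPKM of Lifr, within the range of the other 4, and without this pair the change was 0.73 (adjusted p = 0.0015). The call was lost without shBcat replicate 1 (0.72) or replicate 2 (0.68), and when libraries were averaged in pairs (0.70). Each of these fits leaves shBcat as a lone value assumed to vary like the other groups. Few or none of all genes passed with averaged pairs, so that loss is no result about Lifr.

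Socs3 had 0.458, 1.87 and 2.46 FPKM as lowest, median and highest value with shGFP, against 3.94 and 3.69 FPKM with shBcat. Both shBcat libraries lay above all 6 controls, and the change of 1.00 did not pass the test (SE 0.37, adjusted p = 0.13). Pim3 had 4.06, 14.25 and 16.7 FPKM with shGFP, against 21.2 and 22.4 FPKM with shBcat, again above all controls without passing (1.01, SE 0.49, adjusted p = 0.25). The lowest controls of both genes were shGFP replicates 3 and 4, with 0.599 and 0.458 FPKM of Socs3 and 4.06 and 4.65 FPKM of Pim3, the pair with the high mitochondrial share. Without this pair Pim3 was called higher with shBcat at 0.48 (SE 0.14, adjusted p = 0.046) and Socs3 stood at 0.66 (SE 0.25, adjusted p = 0.094), and 19.9% of all genes were called. Pim1 had a change of 0.17 with all controls and -0.08 without this pair, with no call in either.

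The remaining genes overlapped between shGFP and shBcat. Il6st had 7.59, 8.57 and 10.1 FPKM with shGFP and 8.66 and 9.16 FPKM with shBcat. Stat3 had 3.09, 5.475 and 6.11 against 4.23 and 4.28 FPKM, and Pim1 21.5, 38.9 and 42.7 against 37.3 and 38.3 FPKM. The controls of Stat3 and Pim1 were spread widely, again with replicates 3 and 4 lowest, at 3.09 and 3.18 FPKM of Stat3 and 21.5 and 24.8 FPKM of Pim1. Of the 41 other pathway genes tested, 1 was higher and 5 lower with shBcat, against 8.71% of all genes called. Ptpn6, a phosphatase that dampens cytokine signalling, stood at 15.2 with shGFP and 7.42 FPKM with shBcat (log2 change -0.93, adjusted p = 0.0064), Il6ra, the IL-6 binding receptor chain, at 1.02 and 0.189 FPKM (-0.75, adjusted p = 0.014), Cebpb at 1.34 and 2.74 FPKM (0.69, adjusted p = 0.021) and Jak2 at 2.96 and 2.01 FPKM (-0.39, adjusted p = 0.035).

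**Figure D2:**
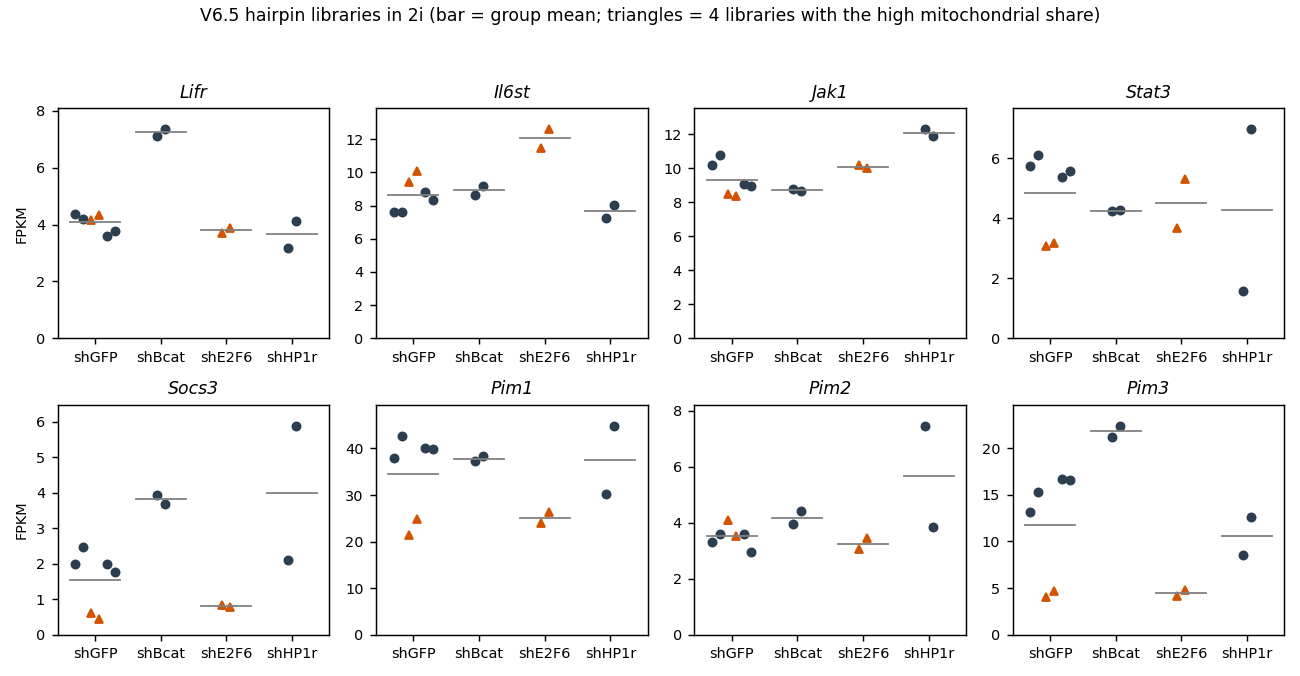
FPKM of each gene in the 12 V6.5 hairpin libraries, with bars at group means and triangles for the 4 libraries with a mitochondrial share of 19.3% to 22.9%. Socs3, Pim1 and Pim3 are lowest in the triangles, and Lifr is highest in the 2 shBcat libraries at 7.13 and 7.35 FPKM.

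With shE2F6 against the same 6 shGFP libraries, limma called none of the 8 genes, where 1.06% of all genes tested were called, and 1 gene, Il6st, had an unadjusted p under 0.05. The median log2 change was -0.08 for the 8 and -0.20 over all genes, and scaling moved the latter to -0.04. Il6st gave 11.5 and 12.6 FPKM with shE2F6, above all 6 controls (log2 change 0.44, SE 0.11, adjusted p = 0.070). Pim3 gave 4.17 and 4.8 FPKM with shE2F6, against 4.06 and 4.65 FPKM in shGFP replicates 3 and 4 and 13.2 to 16.7 FPKM in the other 4 controls (-1.04, SE 0.49, adjusted p = 0.16). Socs3 gave 0.85 and 0.783 FPKM and Pim1 24 and 26.3 FPKM, also near the pair of controls that shared the high mitochondrial share.

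Without shGFP replicates 3 and 4, 4 of the 8 genes passed with shE2F6, where 59.1% of all genes were called. Il6st was then higher (0.52, adjusted p = 0.00061), and Socs3 (-0.74, adjusted p = 0.029), Pim1 (-0.65, adjusted p = 0.0023) and Pim3 (-1.58, adjusted p = 2.9e-05) were lower. The 4 controls that remained had a mitochondrial share of at most 8.92%, so the hairpin and that share cannot be told apart in these 4 calls. With all controls and a term for the 4 libraries of high share, Socs3 stood at 0.25, Pim1 at 0.12 and Pim3 at 0.03, each turned from a negative value and none called. Without shGFP replicate 3 alone, Il6st (0.46, adjusted p = 0.026) and Pim3 (-1.27, adjusted p = 0.039) passed, where 28.9% of all genes were called. Without replicate 4 alone Il6st passed (0.48, adjusted p = 0.035), where 23.9% of all genes were called. Lifr, Stat3 and Pim2 had log2 changes of -0.08, -0.07 and -0.08 in the full comparison, which turned to 0.08, 0.10 and 0.07 with scaling. None of the 41 other pathway genes passed with all controls, where 1.06% of all genes tested were called.

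With shHP1r, limma called none of the 8 genes against shGFP, where 7.59% of all genes were called, and 3 had an unadjusted p under 0.05 (Jak1, Socs3 and Pim2). The median log2 change of the 8 was 0.08, beside 0.04 over all genes. Jak1 gave 12.3 and 11.9 FPKM with shHP1r, above the controls at 8.35, 9.02 and 10.8 FPKM (lowest, median and highest), a change of 0.35 (SE 0.10, adjusted p = 0.065) that passed with scaling (0.34, adjusted p = 0.041), without shGFP replicate 2 (0.39, adjusted p = 0.034) and without replicates 3 and 4 (0.29, adjusted p = 0.046). The 2 shHP1r libraries differed widely from each other. Stat3 gave 1.57 and 6.96 FPKM in replicates 1 and 2, Socs3 2.11 and 5.89, Pim1 30.3 and 44.9, Pim3 8.53 and 12.6, and Pim2 7.46 and 3.86 FPKM.

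Replicate 1 thus held the lowest Stat3 and the highest Pim2 of the 12 libraries, and replicate 2 the highest Stat3, Socs3 and Pim1. Without replicate 2, the Pim2 change was 0.91 against shGFP, 0.71 against shBcat and 0.99 against shE2F6. These values rest on replicate 1 as a lone library. Replicate 2, at 3.86 FPKM, lay within the shGFP range of 2.97 to 4.09 FPKM. Pim3, at 0.01 with all controls, turned to -0.53 without shGFP replicates 3 and 4 (SE 0.14, adjusted p = 0.039), where 16.2% of all genes were called. Of the 41 other pathway genes 3 were higher and 0 lower than with shGFP, where 7.59% of all genes were called. Pramel7, a STAT3 target that supports naive ES cells, went from 0.871 to 3.23 FPKM (log2 change 1.11, adjusted p = 0.035). Jak2 went from 2.96 to 4.17 FPKM (0.39, adjusted p = 0.040). Socs1, a feedback inhibitor like Socs3, went from 0.911 to 2.89 FPKM (1.00, adjusted p = 0.042). The 4 fibroblast markers other than Fn1 in this table summed to 4.43 and 6.37 FPKM with shHP1r and 0.468 to 2.67 FPKM in the other 10 libraries, while Fn1 overlapped with 156 and 185 against 144 to 210.0 FPKM, and their part in these values was not tested.

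The 3 knockdowns share the shGFP controls, so they were also compared with each other. Against shBcat, shE2F6 had 2 of the 8 genes lower, where 15.2% of all genes were called and the median log2 change of the 8 was -0.43, beside -0.20. Lifr gave 3.72 and 3.89 FPKM with shE2F6 against 7.13 and 7.35 with shBcat (-0.78, SE 0.13, adjusted p = 0.0059), a call lost without shE2F6 replicate 2 or either shBcat replicate (adjusted p = 0.053 to 0.076). Pim3 gave 4.17 and 4.8 against 21.2 and 22.4 FPKM (-2.06, SE 0.60, adjusted p = 0.045). The Pim3 call was lost without shGFP replicate 1 or 2 or any one of the 6 knockdown libraries. With a term for the 4 libraries of high mitochondrial share the Pim3 change was -0.44 (adjusted p = 0.24). Socs3 gave 0.85 and 0.783 against 3.94 and 3.69 FPKM (-1.41, SE 0.45, adjusted p = 0.056), which passed without shGFP replicate 3 or 4 or either shHP1r replicate (adjusted p = 0.032 to 0.047). Il6st gave 11.5 and 12.6 against 8.66 and 9.16 FPKM (0.40, SE 0.14, adjusted p = 0.068), which passed without shGFP replicate 4 (adjusted p = 0.044). Of the 41 other pathway genes, 6 were higher and 4 lower with shE2F6, among them Ptpn6 (7.42 to 22.9 FPKM, 1.51), Cebpb (2.74 to 0.433 FPKM, -1.38), Jak2 (2.01 to 4.09 FPKM, 0.76) and Pias1 (6.14 to 9.34 FPKM, 0.53).

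Against shBcat, shHP1r had 1 of the 8 genes lower, where 9.31% of all genes were called, with a median of -0.13 beside -0.00270. That gene was Lifr, at 3.18 and 4.13 FPKM (-0.83, SE 0.13, adjusted p = 0.0017). Jak1 was at 12.3 and 11.9 against 8.79 and 8.67 FPKM (0.43, SE 0.12, adjusted p = 0.058), which passed without shGFP replicate 2 (adjusted p = 0.044). Of the other pathway genes 5 were higher and 0 lower, among them Jak2 (2.01 to 4.17 FPKM, 0.78), Il6ra (0.189 to 1.17 FPKM, 0.87), Mcl1 (73.0 to 115.1 FPKM, 0.64) and Pias1 (6.14 to 8.79 FPKM, 0.45). Lifr was therefore higher with shBcat than with shGFP, shE2F6 and shHP1r. These tests used the same fit and the same shBcat libraries, so they are not independent.

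Between shHP1r and shE2F6, 1 of the 8 genes was called, where 15.5% of all genes were called, with a median of 0.39 beside 0.26. Il6st gave 7.25 and 8.05 FPKM with shHP1r and 11.5 and 12.6 with shE2F6 (-0.59, SE 0.14, adjusted p = 0.022). Its call was lost without either shE2F6 replicate or shHP1r replicate 1 (adjusted p = 0.071 to 0.15) and with the term for the mitochondrial share (-0.35, adjusted p = 0.13). Socs3 gave 2.11 and 5.89 against 0.85 and 0.783 FPKM (1.35, SE 0.45, adjusted p = 0.061), which passed without shGFP replicate 3 or 4 (adjusted p = 0.036 to 0.038). Of the other pathway genes 4 were higher and 2 lower with shHP1r, among them Socs1 (0.165 to 2.89 FPKM, 1.68), Pramel7 (0.304 to 3.23 FPKM, 1.62), Ptpn1 (4.06 to 5.93 FPKM, 0.45) and Ptpn6 (22.9 to 12.1 FPKM, -0.88).

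In QKO cells in 2i, shBcat had 1 of the 8 genes lower than shGFP, Jak1, where 2.15% of all genes tested were called. The median log2 change of the 8 was -0.10, beside -0.04 over all genes. Jak1 gave 33.43, 31.4 and 33.49 TPM with shBcat and 40.96, 45.72 and 39.4 TPM with shGFP, without overlap (-0.35, SE 0.06, adjusted p = 0.047). The call was lost with scaling (-0.30, adjusted p = 0.054) and without any one library other than shGFP replicate 3 (adjusted p = 0.055 to 0.16).

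Socs3 in QKO gave 3.08, 2.86 and 1.73 TPM with shBcat and 3.74, 6.64 and 4.21 TPM with shGFP, lower in all 3 shBcat libraries without passing (-0.71, SE 0.22, adjusted p = 0.096). Stat3 gave 35.53, 32.74 and 33.3 against 37.37, 43.14 and 36.95 TPM, also without overlap (-0.20, SE 0.07, adjusted p = 0.12). Lifr gave 16.83, 16.95 and 15.77 against 15.62, 14.24 and 14.39 TPM, and was higher in all 3 shBcat libraries without passing (0.15, SE 0.06, adjusted p = 0.16). Pim2 was at 14.1, 16.01 and 16.2 against 12.9, 14 and 13.87 TPM (0.17, SE 0.07, adjusted p = 0.18). Il6st, Pim1 and Pim3 overlapped between the groups, with log2 changes between -0.10 and -0.0060.

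Fibroblast or feeder markers moved with the hairpin in QKO. Of the 10, 10 reached 1 TPM with shGFP and 9 with shBcat. With shBcat 0 were called higher and 6 lower, where 2.15% of all genes tested were called. The median log2 change of the list was -2.01, beside -0.04 over all genes. The 9 markers other than Fn1 summed to 74.96, 90.91 and 99.7 TPM with shBcat and to 384.49, 653.32 and 278.4 TPM with shGFP. Fn1 overlapped between the groups, with 1131.83, 1112.27 and 1064.27 TPM against 1004.9, 1167 and 1036.47 TPM. Col1a1, a collagen of fibroblasts, gave 14.67, 19.98 and 20.09 TPM with shBcat and 85.08, 134.6 and 55.27 TPM with shGFP, and none of the defining markers was at 0. shGFP replicate 2 had the highest marker sum and also the highest Jak1, Stat3, Socs3 and Il6st of the 6 libraries, while its Lifr was the lowest of the 6 and its Pim1 and Pim3 were the lowest of the 3 shGFP libraries. The part of these cells' RNA in the values of the 8 genes was not tested. The 9 primitive endoderm markers summed to 16.1 to 23.2 TPM with shBcat and 30.2 to 51.1 TPM with shGFP. Of the 47 other pathway genes 0 were higher and 3 lower with shBcat, beside 2.15% of all genes called. Among them were Klf4, a naive pluripotency factor (70.1 to 55.4 TPM, -0.33, adjusted p = 0.023), and Ccnd1 (75.0 to 58.8 TPM, -0.34, adjusted p = 0.048).

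**Figure D3:**
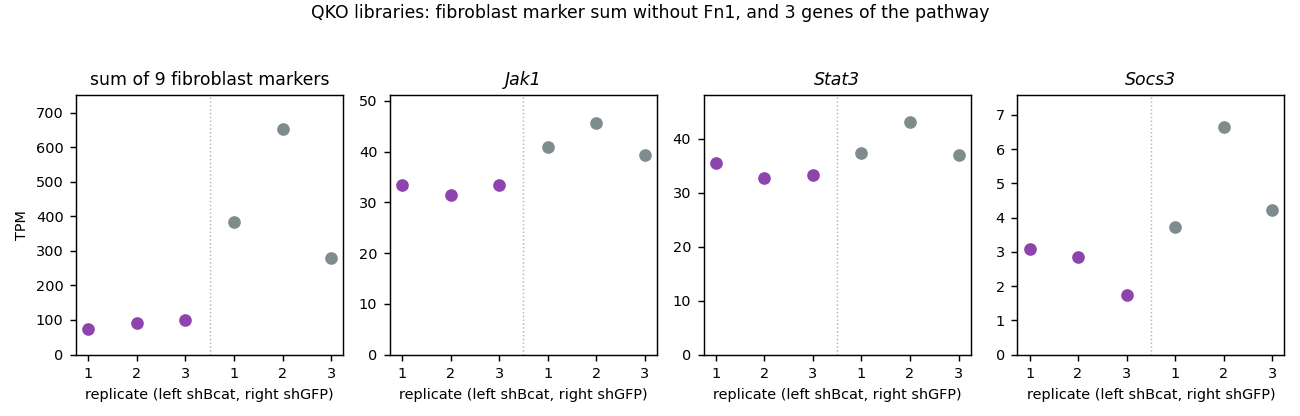
TPM in the 6 QKO libraries by replicate, shBcat left of the dotted line and shGFP right of it, for the sum of 9 fibroblast markers and for Jak1, Stat3 and Socs3. The marker sum is 74.96 to 99.7 TPM with shBcat and 278.4 to 653.32 TPM with shGFP, and all 3 genes are lower in the shBcat libraries. Of the genes not shown, Lifr and Pim2 were higher there without overlap, and Il6st, Pim1 and Pim3 overlapped. A link between the markers and these genes was not tested.

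The β-catenin hairpin was thus tested against a control in 3 settings, each within its own table. Lifr was higher in all 3, by 0.70 in V6.5 and 0.41 at 96 h, where it was called, and by 0.15 in QKO, where it was not. Socs3 had a change of 1.00 in V6.5, -0.71 in QKO and -0.33 at 96 h, with no call in any setting. Its groups did not overlap in any of them. The share of all genes without overlap is not given here, so nothing is drawn from this. Pim2 had a change of 0.20, 0.17 and -0.42, and Pim3 of 1.01, -0.10 and 0.04. Stat3 was between -0.20 and -0.12 in all 3 without a call. The differences between the settings were not tested, since the tables were normalized apart.

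**Figure D4:**
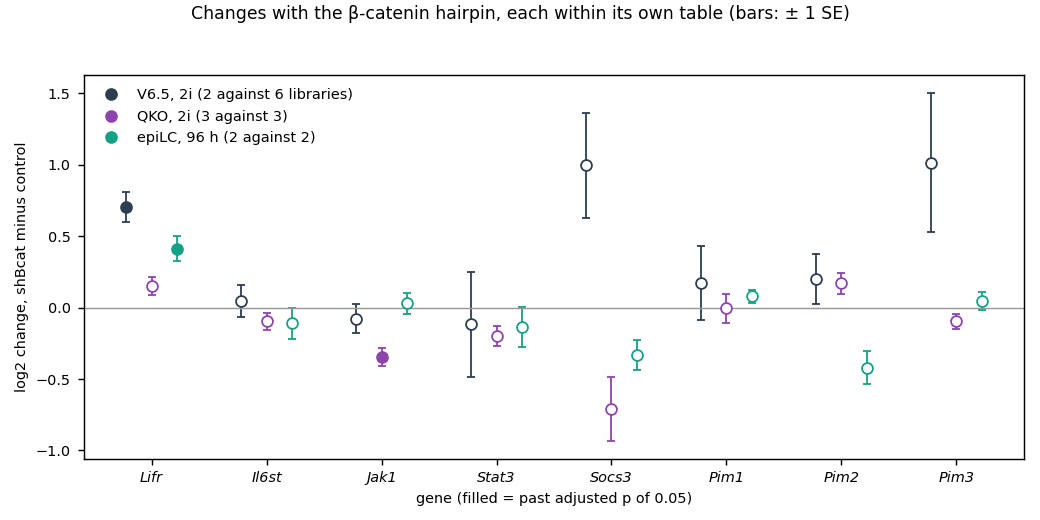
Log2 change (shBcat minus control, bars ± 1 SE) of each gene in V6.5 cells in 2i, QKO cells in 2i and epiLC at 96 h, with filled points past an adjusted p of 0.05. Lifr lies above 0 in all 3 settings, and Socs3 lies at 1.00 in V6.5 and below 0 in the other 2.

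Over the 12 FPKM libraries, the genes whose centred log2(FPKM + 1) profile lay nearest to that of Stat3 were Eci2, BC026585 and Ism2, with a root mean square difference of 0.21, 0.22 and 0.22, against a median of 0.47 over all genes tested. Nearest to Socs3 were Atg16l2, Tmem37 and Mpzl1, with 0.22, 0.26 and 0.26 against a median of 0.63. Mpzl1 had a mean of 19.2 FPKM with shGFP, 28.7 with shBcat, 13.2 with shE2F6 and 27.0 with shHP1r. Atg16l2 had a mean of 1.53, 2.56, 0.67 and 2.94 FPKM in the same order. These libraries share the differences in mitochondrial share and the shGFP pairs described above, and the likeness is a description.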

How the data were processed

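RNA-seq libraries of mouse cells were analysed in 4 tables, 32 of the 50 samples, and the 18 chromatin immunoprecipitation samples were not analysed here. The authors deposited FPKM values for the 12 V6.5 hairpin libraries, which per the submitters' processing notes involved bcl2fastq 2.18, Bowtie2, TopHat2 2.0.13 and Cufflinks 2.2.1. For the other 6, 6 and 8 libraries the deposited values are TPM, and the same notes name bcl2fastq 2.18, STAR, RSEM and Bowtie2. The build named for both is mm10, and the versions of STAR, RSEM and Bowtie2 are not given in the sources used here. Both units are shares, so a rise of abundant transcripts lowers the rest. The FPKM table lists no gene with a 0 in any of its libraries. In it, 1 further column of values named after the second shHP1r library, with entries below 0, was not used. Depth is unknown, so no counting interval is given.

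Values were taken as log2(value + 1), for genes that reached 1 in 2 or more libraries of their table. Each table was fitted with limma 3.58.1 (statmod 1.5.0, R 4.3.3), 1 mean per group over all its libraries, with a variance trend and robust moderation. Benjamini-Hochberg adjustment of the two-sided p-values ran over all genes tested, with a threshold of 0.05. The fit was tested on simulated data with 200 changed genes. In all, 13 comparisons were made, each within a table. The 8 genes, the lists and the 2 groupings of libraries (by pair and by mitochondrial share) were chosen with earlier results of these data known. Beside the 8 genes, the text names per comparison up to 4 called pathway genes with the smallest p, the 3 nearest profiles to Stat3 and Socs3, the targeted genes, and markers of other cell types. Some pathway genes that this rule names are not reported here. Dab2, Col1a1, Lum and Fn1 were singled out after their values were seen. The nearest profiles left out predicted genes and ribosomal protein genes. Alternatives were a pseudocount of 0.1, a minimum of 5 or none, moderation without trend or robustness (plain moderation), median-of-ratios scaling, a minimum of 2-fold, the compared groups alone, the replicate number as a block, each library left out, and in the FPKM table averaged pairs, a mitochondrial term and the controls without replicates 3 and 4. Promoter windows came from RefSeq (GRCm38.p6) and were searched on both strands.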

Additional observations from a re-analysis of the deposited data

Results flagged for a closer look

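Socs3 had log2 differences of opposite sign between β-catenin hairpin and control in different cells, with groups that did not overlap, but limma called none of them. The difference was 1.00 in V6.5 cells in 2i (adjusted p = 0.13), -0.71 in QKO cells in 2i (adjusted p = 0.096) and -0.33 in epiLC at 96 h (adjusted p = 0.12). The V6.5 value was 0.66 without shGFP replicates 3 and 4, the lowest controls. Pim2 had a log2 difference of 0.17 in QKO cells (adjusted p = 0.18) and -0.42 at 96 h (adjusted p = 0.089), again without overlap and without a call. As the share of all genes without overlap is not given here, nothing is drawn from overlap for either gene. Between 24 and 48 h of epiLC, Il6st changed by 0.70 in cells without a named hairpin and by -0.41 with shBcat, and Pim2 by -2.43 and 0.36. These differences lie between tables that were normalized apart, and they were not tested.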

How the results depend on the processing

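The counts of called genes among the 8 held best in the time course with no named hairpin. No alternative there moved a count by more than 1.5 times. In its comparisons 74.2% to 76.0% of all genes tested were called, so steady counts are no result about the 8 genes. Leaving out 1 library gave 5 to 6 calls (5 with all libraries) from 2i to 24 h, 8 to 8 (8) from 24 to 48 h and 6 to 7 (6) from 2i to 48 h. Leaving out 1 library gave 0 to 1 calls (1) for shBcat against shGFP in V6.5, 0 to 2 (0) for shE2F6, 0 to 1 (0) for shHP1r, 0 to 4 (2) for shE2F6 against shBcat, 1 to 2 (1) for shHP1r against shBcat, 0 to 2 (1) for shHP1r against shE2F6, 0 to 1 (1) in QKO, 0 to 1 (1) at 96 h, 2 to 5 (5) for shBcat from 24 to 48 h and 2 to 5 (4) from 48 to 96 h. Where this left 1 library in a group, that library is assumed to vary like the other groups. Leaving out 1 shGFP library called 6.47% to 8.5% of all genes tested for shBcat against shGFP. It called 0.244% to 28.9% for shE2F6 and 5.23% to 8.15% for shHP1r against shGFP. Against shBcat it called 10.7% to 30.3% for shE2F6 and 8.37% to 10.1% for shHP1r, and 11% to 29.6% for shHP1r against shE2F6. In QKO, leaving out any 1 library called 0.0522% to 6.26%. Calls over all genes thus moved too, and the ranges above are no result about the 8 genes. No call among the 8 genes changed direction under any alternative. The cause of the other changes was not tested.

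A minimum of 2-fold gave 0 calls for shBcat against shGFP in V6.5, 1 for shE2F6 against shBcat, 0 for shHP1r against shBcat, 0 for shHP1r against shE2F6, 0 in QKO, 0 at 96 h, and 1 and 0 for the shBcat intervals. Of all genes tested, that minimum called 2.42%, 5.12%, 4.32%, 6.23%, 0.508%, 0.288%, 3.25% and 2.12% in the same order. No filter on low values gave 0 calls in QKO, 0 at 96 h, and 0 and 0 for the shBcat intervals. It called 0.0812%, 0.168%, 0.177% and 0.222% of all genes then tested, so these 0 calls are no result about the 8 genes. Scaling gave 1 call for shHP1r against shGFP, 2 against shBcat and 0 in QKO, where plain moderation also gave 0. Of all genes tested, scaling called 8.07%, 10.7% and 2% in these comparisons, and plain moderation called 0.122% in QKO. Fitting only the compared groups gave 7 calls for shE2F6 against shBcat, 3 for shHP1r against shE2F6 and 0 at 96 h. Of all genes tested, that fit called 66.9%, 38.3% and 1.84% in these comparisons, beside 15.2%, 15.5% and 4.82% in the full fit. Averaged pairs kept none of the calls among the 8 genes, but they leave a lone value for each knockdown. Few or none of all genes tested passed there, so this loss is no result about the 8 genes. The mitochondrial term gave 2 for shBcat and 3 for shHP1r against shGFP. It gave 1 for shE2F6 against shBcat, 3 for shHP1r against shBcat and 0 for shHP1r against shE2F6. Of all genes tested, the term called 24.1%, 22.9%, 9.33%, 26.5% and 5.86% in the same order. Under that term Pim3 with shHP1r against shGFP stood at -0.53 (adjusted p = 0.025). Without shGFP replicates 3 and 4 there were 2 calls for shBcat, 4 for shE2F6 and 2 for shHP1r. The shares of all genes called were then 19.9%, 59.1% and 16.2%.

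The replicate numbers do not pair the libraries by the labels. Deviations of same-numbered QKO libraries correlated at -0.012, -0.042 and 0.13, and not every library correlated best with its own number. Elsewhere the correlations ran from -0.14 to 0.17, except 0.28 at 96 h. With the replicate block there were 2 calls for shBcat, 3 for shE2F6 and 0 for shHP1r against shGFP. The block gave 5 calls for shE2F6 against shBcat, 3 for shHP1r against shBcat and 5 for shHP1r against shE2F6. In QKO it gave 0, where Jak1 had an adjusted p of 0.067. Of all genes tested, in the same order, it called 10.8%, 53.3% and 4.23%, then 54.3%, 23% and 55.8%, and 0.887% in QKO. shGFP replicates 3 to 6 share their number with no other group, so the block takes them out of these contrasts.

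Scaling moved the median of all genes by 0.16 for shE2F6 against shGFP, 0.18 for shE2F6 against shBcat and -0.17 for shHP1r against shE2F6. The share of calls that were higher, over all genes, went from 38.6% to 57.3%, from 32.9% to 47.6% and from 79.6% to 68.7% in these, from 27.2% to 45.7% in QKO and from 71.9% to 52.0% for shBcat from 48 to 96 h. Depth is unknown, so it is not known how far it limits the low levels of Socs3 and Il6ra. A minimum of 5 left Socs3 and Pim2 untested in the FPKM table and Socs3 untested in QKO.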
